A study of Homo sapiens with 18 samples.

Results

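AP-1 is a dimeric transcription factor, and the 10 genes described here encode its subunits and close partners: the Fos genes FOS, FOSB, FOSL1 and FOSL2, the Jun genes JUN, JUNB and JUND, and ATF3, BATF and BATF3. They were taken from the deposited count tables by their GENCODE 29 gene symbols, and they are 10 of 57500 genes in the tables. All 10 passed the filter on low counts in every comparison. RNA-seq was performed on THP-1, a human cell line from a monocytic leukaemia, to ask how depletion of the nuclear receptors NR4A2 and NR4A3 changes the resting and the LPS-stimulated transcriptome.

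There were 18 libraries in 6 groups of 3. Each line carried a stably integrated lentiviral shRNA: a non-target sequence (shNT), one against NR4A2 (shNR4A2) or one against NR4A3 (shNR4A3). Each line was sampled without LPS (control) and after LPS, the cell wall component of Gram-negative bacteria that is sensed by TLR4, at 2.5 µg/ml for 2 h. All cells, controls included, had first been kept in buffered medium in a gas chamber for 2 h. Each knockdown was 1 selected line per target, so an effect of the target gene and an effect of that line cannot be told apart. Total counts ran from 16171161 to 23929138 per library. The monocytic genes SPI1 (median 711 TPM) and CSF1R (median 106 TPM) were present in all 18 libraries, whereas the monocytic markers CD68 and MPO were low (medians 3.13 and 4.39 TPM) and the summed T cell markers CD3D, CD3E, CD2 and CD8A stayed at or below 1.28 TPM.

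Fos proteins bind DNA only as dimers with a Jun protein, whereas Jun proteins can also pair with each other, and ATF3 and the BATF proteins join the same network through their basic leucine zippers. Several of these genes, FOSB and JUN among them, are immediate-early genes. Signals that reach MAP kinases switch on the transcription of such genes within minutes, and their mRNAs are short lived. In monocytes AP-1 acts with NF-κB on cytokine and protease genes after LPS, and ATF3 is known as a brake on such genes.

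Stretches before the starts of 5 members that rose with LPS in shNT (FOS, FOSB, JUN, JUNB and ATF3) are shown first, so that the letters matched in them can be read. Of the 10 genes, 8 had an entry in the RefSeq promoter table (GRCh38.p14), with 9 start sites, and the 250 bases before each start were searched on both strands. The search used the letters TGAGTCA (the AP-1 site), TGACGTCA (the cAMP response element, CRE), TGACG (the core that the CRE contains) and TGACATCA (the variant known from JUN). It also used AAAGGTCA (NBRE, the element that NR4A monomers bind), the exact letters TATAAA for the TATA box, and the MEF2 site by its name. Capitals mark matches to these other than the TATA box, positions are counted back from -1 at the base before the RefSeq start, and bases that lie in an exon of the gene in the deposited tables are left out. The whole JUN window lies in such an exon, so only a short stretch with its TGACATCA and MEF2 sites is printed, and its TGACG match at -123 to -119 is not shown.

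FOS, chr14:75278578-75278773, plus strand, positions -250 to -55: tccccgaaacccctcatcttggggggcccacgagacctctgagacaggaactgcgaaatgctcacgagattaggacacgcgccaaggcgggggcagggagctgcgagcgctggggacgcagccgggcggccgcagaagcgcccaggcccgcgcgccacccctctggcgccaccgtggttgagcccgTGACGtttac
FOSB, chr19:45467746-45467994, plus strand, positions -250 to -2: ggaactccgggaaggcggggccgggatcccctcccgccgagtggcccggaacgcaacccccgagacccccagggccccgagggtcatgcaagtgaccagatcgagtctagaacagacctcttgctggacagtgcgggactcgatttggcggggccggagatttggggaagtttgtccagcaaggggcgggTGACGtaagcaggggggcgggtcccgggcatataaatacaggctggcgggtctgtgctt
JUN, chr1:58784088-58784117, minus strand, positions -70 to -41: gggTGACATCAtgggCTATTTTTAGgggtt
JUNB, chr19:12791236-12791485, plus strand, positions -250 to -1: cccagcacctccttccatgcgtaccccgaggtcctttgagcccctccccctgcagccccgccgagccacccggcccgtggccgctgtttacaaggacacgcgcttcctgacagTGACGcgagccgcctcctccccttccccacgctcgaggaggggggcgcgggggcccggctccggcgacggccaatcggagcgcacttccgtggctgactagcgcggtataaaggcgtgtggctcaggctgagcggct
ATF3, chr1:212565157-212565333, plus strand, positions -250 to -74 of its upstream start: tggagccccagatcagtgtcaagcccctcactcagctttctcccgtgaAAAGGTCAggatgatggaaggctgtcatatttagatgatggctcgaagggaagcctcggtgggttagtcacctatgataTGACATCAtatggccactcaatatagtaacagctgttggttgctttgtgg

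The TGACG core was present before the starts of FOS, FOSB, FOSL2, JUN, JUNB and JUND, against 21.2% of all 35116 promoters of this length. JUND held the full CRE at -200 to -193, which 1.65% of promoters hold. The TGACATCA variant stood at -67 to -60 in JUN, beside a MEF2 site at -55 to -46, and at -123 to -116 in ATF3, and 2.37% and 0.515% of promoters hold the variant and the MEF2 site. An NBRE was matched in ATF3 alone among these windows, at -202 to -195, and 1.05% of promoters hold one. TATAAA was matched in FOS, FOSB, JUNB and, at -230 to -225, before the downstream ATF3 start, against 10.7% of promoters, and variants of these letters were not searched. The letters TGAGTCA, present in 4.2% of promoters, were in none of the 9 windows, and the BATF window held none of the sequences searched. A match of letters describes the sequence and does not show that a factor binds there.

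Before the AP-1 genes, the targeted genes were read as a check of the labels. NR4A2 stood at 4.23, 2.96 and 3.93 CPM (counts scaled to library size by the TMM method) in the shNT control libraries and at 1.85, 1.68 and 2.35 CPM in shNR4A2 control, and at 73.1, 84.6 and 61.8 against 26.0, 32.1 and 18.3 CPM with LPS. NR4A3 stood at 0.900, 1.15 and 0.785 CPM in shNT control against 0.271, 0.172 and 0.0526 in shNR4A3 control, and at 57.8, 58.2 and 61.3 against 34.5, 33.4 and 32.6 CPM with LPS. NR4A2 was lower in shNR4A2 than in shNT without LPS (log2 fold change -0.91, edgeR adjusted p = 0.0359) and with it (-1.52, edgeR adjusted p = 0.00265), and the call without LPS held in 2 of 6 fits that left out 1 library, with edgeR adjusted p up to 0.124. NR4A3 was lower in shNR4A3 without LPS (-2.47, edgeR adjusted p = 0.00767) and with it (-0.82, edgeR adjusted p = 0.000556). NR4A2 was also at 53.2, 70.1 and 47.1 CPM in shNR4A3 with LPS (log2 -0.36 against shNT, edgeR adjusted p = 0.198), and it was called lower there when the fit blocked on the replicate number (log2 -0.37, edgeR adjusted p = 0.00132). No target overlapped between its own line and shNT, but with LPS each knockdown line held more of its target than shNT control.

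Levels were compared between genes as TPM, counts divided by exon length and then brought to 1 common sum per library. JUND, which encodes the Jun protein that most cells hold at rest, was the highest of the 10 in all 9 control libraries, and JUN, the best known immediate-early Jun gene, was the highest in all 9 LPS libraries. In shNT control, mean TPM was 249 for JUND, 103 for JUN, 79.0 for JUNB, 71.3 for FOSL2, 55.1 for BATF, 37.7 for FOSL1, 28.8 for FOS, 9.44 for ATF3, 8.74 for BATF3 and 2.04 for FOSB. With LPS in the same line JUN reached 750.1, JUND 587, JUNB 414 and ATF3 51.2 TPM, while FOS was at 33.3, BATF at 28.0 and FOSB at 7.04 TPM.

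The summed level of the 10 genes was 645 ± 79.6 TPM in shNT control and 1965 ± 305 TPM in shNT LPS (SD, n = 3). The 3 Jun genes made up 66.8% ± 1.92 of that sum in shNT control and 89.0% ± 0.699 in shNT LPS, and the 4 Fos genes 21.7% ± 0.808 and 6.50% ± 0.357. In shNR4A2 the Jun share was 64.1% ± 3.00 in control and 86.6% ± 1.48 with LPS, and in shNR4A3 it was 61.9% ± 3.28 and 87.5% ± 0.874. By TPM the AP-1 mRNA of all 3 lines was therefore mostly Jun mRNA already in control. The Jun share was larger after 2 h of LPS, with control and LPS libraries apart in each line. The shares depend on the unit: by summed counts, without the division by length, the Jun genes made up 54.7% in shNT control and 85.3% in shNT LPS, and the Fos genes 38.7% and 9.88%.

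**Figure D1:**
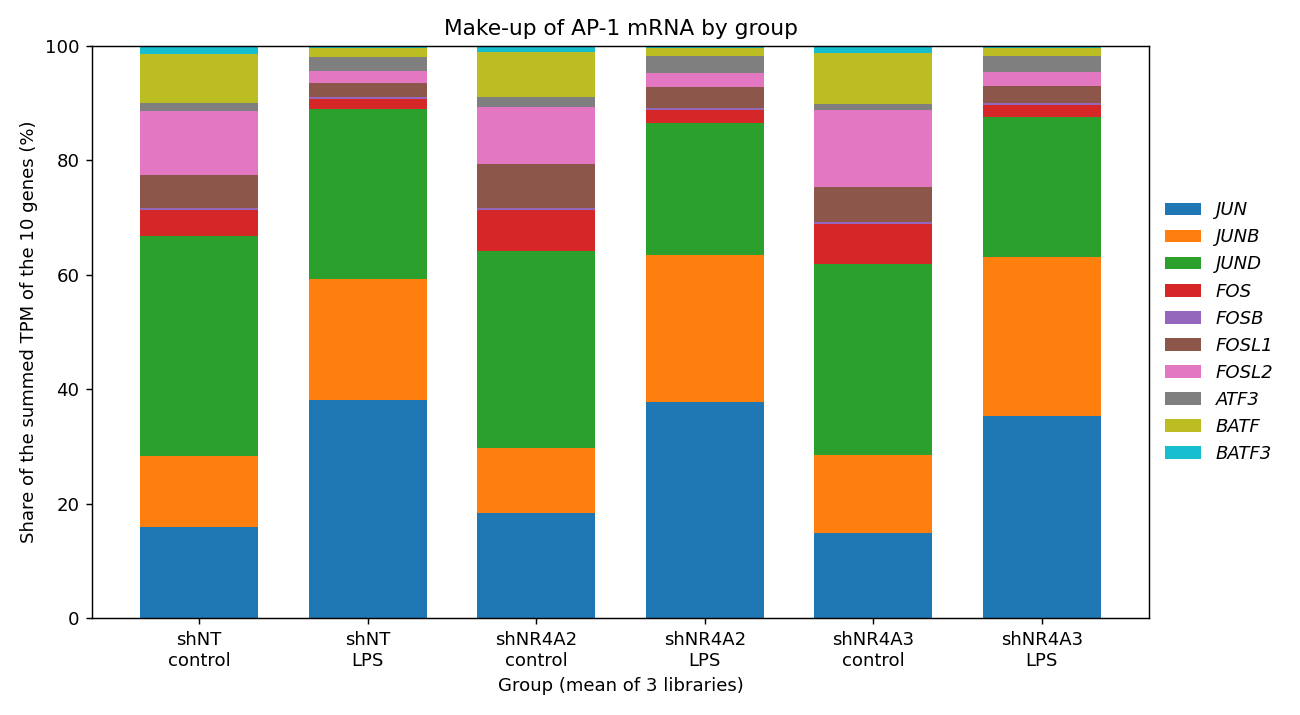
Share (%) of the summed TPM of the 10 AP-1 genes taken by each gene, as stacked bars of group means (3 libraries each). JUN, JUNB and JUND together fill 66.8% of the shNT control bar and 89.0% of the shNT LPS bar, and the shNR4A2 and shNR4A3 bars have the same layout.

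LPS changed the AP-1 genes of shNT cells in both directions. JUN, ATF3, JUNB, FOSB, JUND, FOSL1 and FOS rose, FOSL2 and BATF fell, and BATF3 did not pass the test. These 7 higher and 2 lower of 10 compare with 11.6% of all 15711 genes tested called higher and 13.3% called lower (edgeR quasi-likelihood test, Benjamini-Hochberg adjusted p under 0.05), and the median log2 fold change was 0.99 for the 10 genes and -0.01 for all genes tested. Because cells were measured in bulk, fewer cells of a type and less RNA per cell cannot be told apart here. The values below are CPM on the TMM scale of the tests. TPM ratios of LPS over control stand lower for all genes (median log2 -0.23 in shNT, -0.28 in shNR4A2 and -0.23 in shNR4A3), and the changes are given relative to that shift.

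Among the Jun genes, JUN (ENSG00000177606, chr1:58780788-58784327, minus strand) was at 119.9, 82.4 and 76.4 CPM in the 3 shNT control libraries and at 778, 908 and 656 CPM with LPS. Its log2 fold change was 3.07 (SE 0.16; adjusted p = 4.96e-09, edgeR). In shNR4A2, JUN went from 134, 127 and 106 CPM to 844, 938 and 659 CPM. In shNR4A3 it went from 101, 88.9 and 83.1 CPM to 730.4, 792 and 678 CPM. Every LPS library of each line stood far above every control library, and replicate 3 was the lowest library in all 6 groups.

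JUNB (ENSG00000171223, chr19:12791496-12793315, plus strand), a Jun protein that restrains JUN on some promoters and drives others, was at 34.8, 41.3 and 33.8 CPM in shNT control and at 215, 242 and 208 CPM with LPS. The log2 fold change was 2.60 in shNT (SE 0.10; adjusted p = 2.06e-10, edgeR), 2.86 in shNR4A2 and 2.77 in shNR4A3. JUNB shares 259 exonic bases with HOOK2 on the opposite strand, and the strand setting of the counting was not given in the sources used here, so reads of the 2 genes there cannot be told apart. HOOK2 had 924 counts summed over the shNT control libraries and 791 with LPS.

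JUND (ENSG00000130522, chr19:18279760-18281622, minus strand) was at 133, 135 and 88.6 CPM in shNT control and at 386, 325 and 254 CPM with LPS. Its log2 fold change was 1.44 in shNT (SE 0.16; adjusted p = 1.58e-05, edgeR), 1.11 in shNR4A2 (SE 0.25) and 1.32 in shNR4A3 (SE 0.13). The spread was widest in shNR4A2 with LPS, at 333, 307 and 167 CPM. JUND too was lowest in replicate 3 in all 6 groups.

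ATF3 (ENSG00000162772, chr1:212565334-212620777, plus strand) was at 9.99, 11.4 and 7.80 CPM in shNT control and at 66.6, 64.9 and 51.0 CPM with LPS. The shNR4A2 libraries went from 14.9, 14.2 and 11.1 to 96.7, 79.1 and 54.0 CPM, and the shNR4A3 libraries from 6.23, 8.99 and 6.73 to 79.7, 67.5 and 59.3 CPM. The log2 fold changes were 2.65 (SE 0.15), 2.51 (SE 0.20) and 3.24 (SE 0.16), with an edgeR adjusted p of 8.74e-09 in shNT. BATF3, the next of these genes on chromosome 1 at 65640 bases from ATF3, was at 5.22, 6.80 and 6.05 CPM in shNT control and at 6.24, 5.66 and 6.11 CPM with LPS. In each line the ATF3 groups lay apart between control and LPS, and the BATF3 groups overlapped on the CPM scale. BATF3, which encodes a partner of Jun proteins needed for some dendritic cells, had log2 fold changes of 0.00 (SE 0.16) in shNT, -0.10 (SE 0.21) in shNR4A2 and 0.06 (SE 0.22) in shNR4A3.

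The Fos genes did not share 1 direction. FOSB (ENSG00000125740, chr19:45467995-45475179, plus strand), an immediate-early Fos gene, was at 3.69, 2.91 and 2.08 CPM in shNT control and at 13.9, 11.9 and 8.71 CPM with LPS, a log2 fold change of 1.99 (SE 0.22; adjusted p = 1.55e-05, edgeR). Its change was 1.76 (SE 0.19) in shNR4A2 and 2.07 (SE 0.20) in shNR4A3. FOSL1 (ENSG00000175592, chr11:65892049-65900573, minus strand), which encodes Fra-1, a Fos protein that lacks the strong activation domain, was at 18.8, 19.1 and 16.4 CPM in shNT control and at 28.3, 27.0 and 23.5 CPM with LPS. Its log2 fold change was 0.54 (SE 0.11; adjusted p = 0.00315, edgeR) in shNT, 0.67 (SE 0.13) in shNR4A2 and 0.71 (SE 0.11) in shNR4A3. For both genes the LPS libraries lay above the control libraries of the same line.

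FOSL2 (ENSG00000075426, chr2:28392448-28417312, plus strand), which encodes Fra-2, moved the other way. It was at 148, 131 and 111 CPM in shNT control and at 103, 87.5 and 62.0 CPM with LPS, a log2 fold change of -0.62 (SE 0.15; adjusted p = 0.00850, edgeR). In shNR4A3 it went from 170.2, 181 and 148 to 107, 112 and 79.2 CPM (log2 fold change -0.74, SE 0.13). In shNR4A2 the control libraries at 157, 136 and 114 CPM and the LPS libraries at 116, 121 and 72.2 CPM overlapped, and the fall did not pass the test (log2 fold change -0.40, SE 0.18, edgeR adjusted p = 0.152). When the edgeR fit blocked on the replicate number, FOSL2 was called lower there as well (adjusted p = 0.0123, log2 fold change -0.43), where 16.3% of all genes were called lower.

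FOS (ENSG00000170345, chr14:75278774-75282230, plus strand), the first described member of the family and a gene known for a peak that passes within an hour or so of a signal, changed least among the members called. It was at 25.6, 25.4 and 20.1 CPM in shNT control and at 32.8, 31.8 and 30.7 CPM with LPS, a log2 fold change of 0.42 (SE 0.11; adjusted p = 0.0130, edgeR). Without shNT control replicate 3 the adjusted p was 0.0548 (edgeR, log2 fold change 0.32). In shNR4A2 the control libraries at 46.7, 45.2 and 41.3 CPM and the LPS libraries at 47.4, 32.5 and 45.4 CPM overlapped, as did 40.1, 36.8 and 40.3 against 55.0, 36.8 and 35.7 CPM in shNR4A3. The log2 fold change was -0.09 (SE 0.15) in shNR4A2 and 0.12 (SE 0.15) in shNR4A3, and neither passed the test. As a ratio of mean TPM the shNR4A3 value turned negative (log2 -0.11), as did that of BATF3 in shNR4A3 (log2 -0.15). The other members kept their direction in the LPS comparisons on both scales, apart from BATF3 in shNT, whose log2 fold change of 0.00 had no direction.

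BATF (ENSG00000156127, chr14:75522425-75547015, plus strand), which encodes a partner of Jun proteins best known from lymphocytes, fell in all 3 lines. It was at 15.4, 12.9 and 12.8 CPM in shNT control and at 8.10, 6.995 and 9.29 CPM with LPS, with no overlap. The log2 fold change was -0.75 (SE 0.14; adjusted p = 0.00162, edgeR) in shNT, -0.85 (SE 0.17) in shNR4A2 and -1.002 (SE 0.18) in shNR4A3. BATF lies 240194 bases from FOS on chromosome 14, and JDP2, which encodes a repressive partner of Jun proteins, lies between them. JDP2 rose with LPS in shNT (log2 fold change 0.77, SE 0.12, edgeR adjusted p = 0.000390). It did not pass in shNR4A2 (log2 0.46, edgeR adjusted p = 0.119) or shNR4A3 (log2 0.37, edgeR adjusted p = 0.0633).

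In shNR4A2, LPS raised 6 members (JUN, JUNB, JUND, ATF3, FOSB and FOSL1) and lowered BATF, beside 9.23% and 10.1% of 15772 genes. In shNR4A3 the same 6 members rose and BATF and FOSL2 fell, beside 13.1% and 15.0% of 15342 genes. The difference of the LPS effect between a knockdown line and shNT was tested as an interaction of line and LPS. No member passed that test in either line (edgeR, adjusted p from 0.942 to 1.00), and no gene at all was called among 16674 and 16428 tested (0.0% in both). DESeq2 called none of the members either, and at an unadjusted p under 0.05 edgeR held 1 member for each line. These were FOS for shNR4A2 (log2 -0.51, SE 0.19, edgeR adjusted p = 1.00) and ATF3 for shNR4A3 (log2 0.59, SE 0.23, edgeR adjusted p = 0.942). Within replicate numbers 1, 2 and 3, the log2 ratio of LPS over control for FOS was 0.36, 0.32 and 0.61 in shNT. In shNR4A2 it was 0.02, -0.48 and 0.14, lower in 3 of 3. That was not particular to FOS: FOSB, JUN, JUND, ATF3 and BATF3 were also lower in 3 of 3. FOSL1, FOSL2 and JUNB were higher in 3 of 3, and BATF went both ways. The replicate numbers did not pair all samples for LPS in shNT. With the block the interaction values were -0.52 for FOS (edgeR adjusted p = 0.827) and 0.59 for ATF3 (edgeR adjusted p = 0.244), and no member was called. A p that misses the threshold does not show that the lines responded alike.

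**Figure D2:**
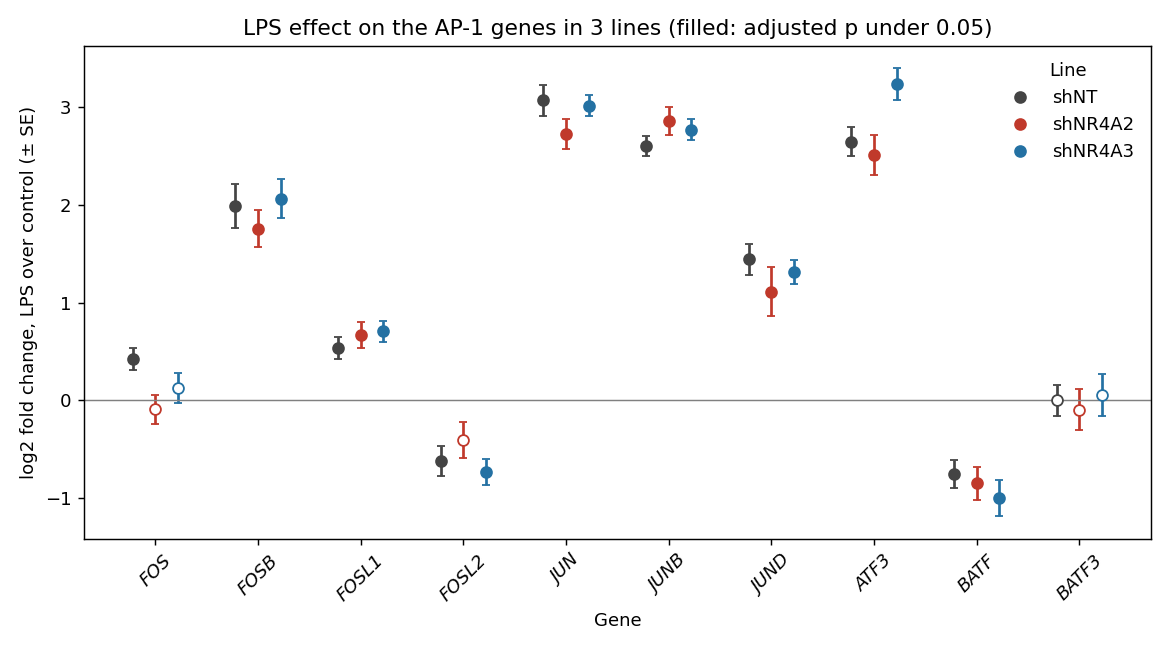
Log2 fold change of LPS over control (± SE, edgeR, 3 libraries against 3) for each AP-1 gene in shNT (grey), shNR4A2 (red) and shNR4A3 (blue); filled points passed an adjusted p under 0.05. JUN, JUNB and ATF3 stand between 2.51 and 3.24 in all 3 lines, and FOS and BATF3 lie near 0 in both knockdown lines.

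The knockdown lines were then compared with shNT in each state. Both knockdown comparisons of a state share the same 3 shNT libraries, so their values are given side by side and no agreement between them is read. Numbered replicates of different lines deviated together, and a fit that blocks on this number is therefore given beside the fit without it where it changed a call or a count. Every gene of the other lists named below as different between lines was called by both fits. The sum of 14 monocytic markers was 6789 TPM in shNT control, 5788 TPM in shNR4A2 control and 5283 TPM in shNR4A3 control, and 6024, 5168 and 4477 TPM with LPS. CTSG was the most abundant of them (899 to 4804 TPM), and all 14 were above 0 in every library. Their part in the differences below was not tested.

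Without LPS, FOS showed the largest difference among the members called. Against the 25.6, 25.4 and 20.1 CPM of shNT control, it stood at 46.7, 45.2 and 41.3 CPM in shNR4A2 control (log2 fold change 0.91, SE 0.12, edgeR adjusted p = 0.00141). In shNR4A3 control it stood at 40.1, 36.8 and 40.3 CPM (log2 fold change 0.72, SE 0.11, edgeR adjusted p = 0.00171). Both knockdown groups lay above all shNT control libraries, and FOS remained called in each fit that left out 1 library. FOSL1 was also higher in shNR4A2 control, at 25.7, 30.02 and 24.7 CPM against 18.8, 19.1 and 16.4 CPM (log2 fold change 0.57, SE 0.12, edgeR adjusted p = 0.0187), but the call was lost without shNT control replicate 1 (adjusted p = 0.0565, edgeR) or replicate 3 (adjusted p = 0.0995, edgeR).

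Thus 2 members were higher and none lower in shNR4A2 control, where 3.63% of 15800 genes were called higher and 2.82% lower, and 1 was higher and none lower in shNR4A3 control, where 3.91% of 15322 genes were called higher and 3.32% lower. The block raised the members called higher to 4 in shNR4A2, by adding JUN (log2 fold change 0.42, edgeR adjusted p = 0.00277) and ATF3 (0.48, edgeR adjusted p = 0.00579), and it raised the genes called higher to 12.1%. In shNR4A3 it raised them to 3, by adding FOSL2 (0.36, edgeR adjusted p = 0.00595) and JUNB (0.24, edgeR adjusted p = 0.0489), beside 8.09% of genes. The members called by neither fit lay in shNR4A2 control between -0.24 (BATF3) and 0.32 (FOSB) on the log2 scale without the block, and in shNR4A3 control between -0.41 (ATF3) and 0.14 (FOSL1).

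With LPS, FOSL1 was at 45.6, 43.4 and 39.3 CPM in shNR4A2 against 28.3, 27.0 and 23.5 CPM in shNT (log2 fold change 0.71, SE 0.11, edgeR adjusted p = 0.00637). It was the only member called there, and it was called in each fit that left out 1 library. In shNR4A3 with LPS, JUNB was the only member called, at 307, 290.1 and 289 CPM against 215, 242 and 208 CPM (log2 fold change 0.41, SE 0.08, edgeR adjusted p = 0.0164). The groups did not overlap, yet the JUNB call was lost in 4 of 6 fits that left out 1 library (without shNT LPS replicate 1 or 3, or without shNR4A3 LPS replicate 1 or 3), with edgeR adjusted p up to 0.0693.

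These single members compare with 4.31% of 15590 genes higher and 2.65% lower for shNR4A2, and with 3.99% of 15578 genes higher and 2.46% lower for shNR4A3. With the block, FOS, FOSL1, FOSL2, JUNB and ATF3 were higher and JUND was lower in shNR4A2 with LPS, beside 15.2% of genes higher and 13.0% lower. FOS, FOSL1, FOSL2 and JUNB were higher and JUND was lower in shNR4A3 with LPS, beside 12.3% and 9.5%. The blocked log2 fold changes of FOS were 0.38 (edgeR adjusted p = 0.000598) and 0.40 (edgeR adjusted p = 0.0110). Those of JUND were -0.29 (edgeR adjusted p = 0.00186) and -0.25 (edgeR adjusted p = 0.0132). JUND overlapped between the lines, at 386, 325 and 254 CPM in shNT, 333, 307 and 167 CPM in shNR4A2 and 291, 287 and 225 CPM in shNR4A3, and within each replicate number shNT held the highest value.

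**Figure D3:**
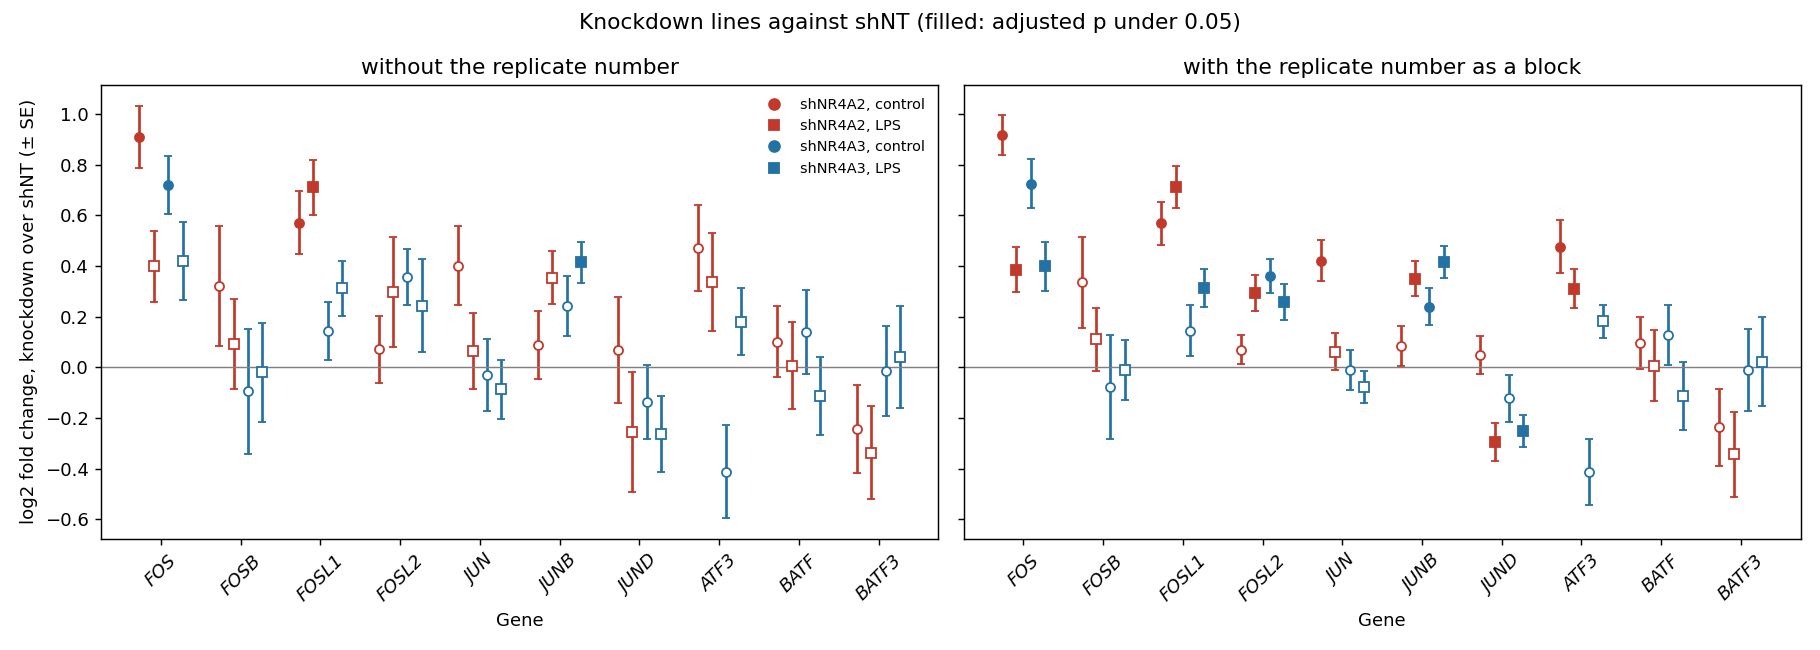
Log2 fold change of each knockdown line over shNT (± SE, edgeR) for each AP-1 gene without LPS (circles) and with LPS (squares), fitted without the replicate number (left) and with it as a block (right); filled points passed an adjusted p under 0.05. FOS without LPS stands at 0.91 and 0.72 on the left, and the right panel holds more filled points, JUND with LPS among the negative ones.

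The knockdown lines were also set against each other. Without LPS, ATF3 was the only member called, at 14.9, 14.2 and 11.1 CPM in shNR4A2 against 6.23, 8.99 and 6.73 CPM in shNR4A3 (log2 fold change 0.88, SE 0.18, edgeR adjusted p = 0.0197), beside 3.08% of 15584 genes called in either direction. The groups did not overlap, and the call was lost without shNR4A2 control replicate 1 or without shNR4A3 control replicate 1 or 3, with edgeR adjusted p up to 0.0925. With the block 4 members were called, ATF3, JUN (log2 0.43) and FOSL1 (log2 0.43) higher and FOSL2 (log2 -0.29) lower in shNR4A2, beside 11.6% of genes. With LPS none of the 10 was called by edgeR or DESeq2, 1 had an unadjusted p under 0.05, and 2.33% of 15539 genes were called. With the block FOSL1 was called there (log2 0.40, edgeR adjusted p = 0.00102), beside 23.6% of genes.

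The values of all 18 libraries are plotted gene by gene. FOS was lowest in shNT control, and its control and LPS libraries overlapped on the CPM scale in both knockdown lines. On the TPM scale, which stands lower with LPS, all 3 shNR4A2 LPS libraries lay below all 3 shNR4A2 control libraries. By mean TPM its order ran from shNR4A2 control at 54.1 through shNR4A3 control at 45.9, shNR4A3 LPS at 42.5, shNR4A2 LPS at 41.9 and shNT LPS at 33.3 to shNT control at 28.8. The ranges of shNR4A3 control, shNR4A3 LPS and shNR4A2 LPS overlapped from each group to the next. FOSL1 was highest in shNR4A2 with LPS at 74.3 TPM, above shNR4A3 with LPS at 56.2 TPM with no overlap. For JUN, JUNB, JUND, FOSB and ATF3 the 3 LPS groups took the 3 highest places and overlapped from each group to the next. The 3 control groups also overlapped from each group to the next, except shNR4A2 and shNT for ATF3 (13.1 and 9.44 TPM). For JUND the control and LPS libraries of shNR4A2 overlapped on the TPM scale. For FOSL2 and BATF the 3 control groups took the highest places. An exact permutation test of 3 libraries against 3 cannot give a p below 0.1, so none is used for these levels.

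**Figure D4:**
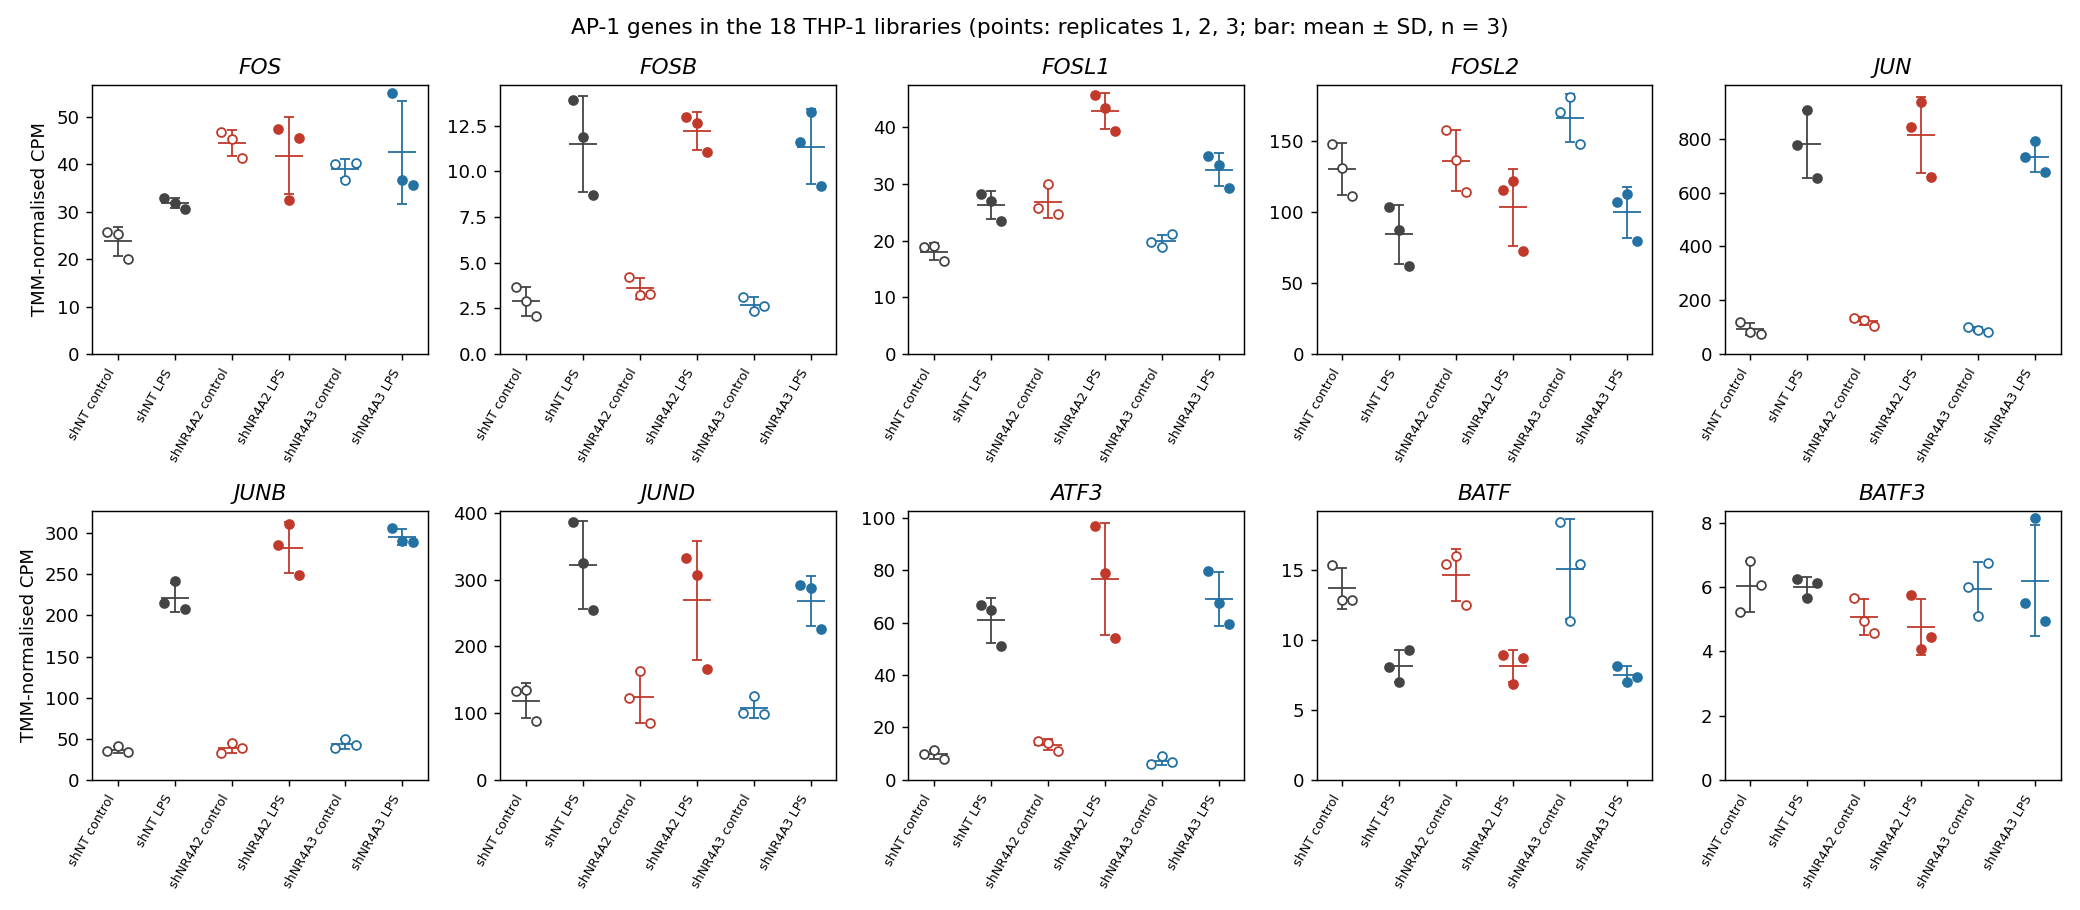
TMM-normalised CPM of each AP-1 gene in the 18 libraries, by group (open: control, filled: LPS; bar: mean ± SD, n = 3; left to right within a group, replicates 1 to 3; each panel has its own axis from 0). JUN rises from 76.4 to 134 CPM without LPS to between 656 and 938 CPM with LPS, FOS is lowest in shNT control, and BATF falls in all 3 lines.

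Likeness of pattern was described by the Pearson correlation of log2 CPM over the 18 libraries with each of 16935 genes, and these libraries share LPS treatment, line and replicate number. FOSB was most like JUN (r = 0.987), then NFIL3 (0.982) and TNFAIP3 (0.980). JUN was most like DUSP8 (0.994), NFIL3 (0.993) and PPP1R15A (0.993), and ATF3 like DUSP8 (0.989), LINC00346 (0.988) and EGR1 (0.986). JUNB was most like PIM3 (0.996), JUND like LINC01686 (0.958), FOSL1 like FZD7 (0.961), FOSL2 like ARHGAP30 (0.957) and BATF like ZNF48 (0.951). FOS was most like HLA-DPB1 (0.908), and BATF3 had no gene above 0.764 (PPP3CC).

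Other bZIP genes were listed beside the members, since many of their products pair with Fos or Jun proteins. Of 23 relatives tested in shNT, 10 rose and 2 fell with LPS, beside 11.6% and 13.3% of all genes. Among the largest rises were those of CREB5 (2.58, 2.52 and 1.22 CPM against 0.0900, 0.165 and 0.185 CPM), MAFF (log2 fold change 2.73) and NFIL3 (2.37), all called by edgeR. NFIL3, a bZIP repressor, went from 20.8, 20.5 and 17.97 to 102, 116 and 87.2 CPM. BATF2 (log2 -1.26) and DDIT3 (log2 -0.35), which encodes the stress factor CHOP, fell. LPS thus lowered both BATF and BATF2 and left BATF3 uncalled. In shNR4A2, 7 relatives rose and 1 fell (9.23% and 10.1% of all genes), and in shNR4A3, 11 rose and none fell (13.1% and 15.0%). With the block, 10 rose and 3 fell in shNR4A2, beside 13.8% and 16.3% of all genes, and 13 rose and 1 fell in shNR4A3, beside 18.6% and 20.8%.

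MAF, which encodes a large Maf factor of macrophages, was higher in both knockdown lines without LPS, at 7.44, 3.80 and 7.65 CPM in shNR4A2 and 5.63, 3.21 and 3.63 CPM in shNR4A3 against 1.98, 1.59 and 1.39 CPM in shNT (edgeR adjusted p = 0.00233 and 0.00795). Of 22 relatives tested without LPS, 3 were higher and none lower in shNR4A2 control (3.63% and 2.82% of all genes), and 2 were higher and 1 lower in shNR4A3 control (3.91% and 3.32%). With LPS, of 23 tested, the counts were 2 and 0 for shNR4A2 (4.31% and 2.65% of all genes), and 1 and 1 for shNR4A3 (3.99% and 2.46%). With the block the counts were 3 and 2 (12.1% and 11.5% of all genes) in shNR4A2 control, and 3 and 1 (8.09% and 6.71%) in shNR4A3 control. With LPS they were 6 and 4 (15.2% and 13.0%) in shNR4A2, and 7 and 3 (12.3% and 9.5%) in shNR4A3. In shNR4A3 with LPS, CEBPD was higher (log2 0.74) and ATF2, a partner of JUN, lower (log2 -0.39).

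The kinases and factors that act on FOS and JUN were read next. Of 28 tested in shNT, 3 rose and 4 fell with LPS, which is near the 11.6% and 13.3% of all genes, and their median log2 fold change was 0.04. The list as a group is thus not set apart, and the genes below are given as single values. MAP3K8, the kinase that carries the TLR4 signal to the ERK pathway, rose from 8.46, 6.80 and 8.41 to 77.8, 61.3 and 111 CPM (log2 fold change 3.40, SE 0.19, edgeR adjusted p = 1.22e-08). MAP2K3, which acts on p38, rose by log2 0.60, and MAPK8, the JNK1 gene, by log2 0.31. MAP3K1, which acts towards JNK, fell from 97.3, 90.3 and 108 to 32.8, 38.1 and 32.9 CPM (log2 fold change -1.51). ELK3, MEF2D and MAPK14, the p38α gene, fell by 0.76, 0.65 and 0.55 on the log2 scale.

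MAPK13, the p38δ gene, differed between the knockdown lines. It was at 10.1, 10.1 and 9.39 CPM in shNR4A2 control, 6.88, 6.91 and 6.93 CPM in shNT control and 4.39, 4.98 and 4.36 CPM in shNR4A3 control, so that no group overlapped another. It was called higher in shNR4A2 (log2 0.52, edgeR adjusted p = 0.0436) and lower in shNR4A3 (log2 -0.60, edgeR adjusted p = 0.0383). The direct comparison of the knockdown lines gave log2 1.11 (SE 0.16, edgeR adjusted p = 0.00211). With LPS the same order held, at log2 0.93, -0.72 and 1.65 in those comparisons, all called. MAPK11, the p38β gene, was lower in shNR4A3 than in shNT in both states (log2 -0.65 and -0.67, both called). Of the 28 genes of this list, 1 was higher and none lower in shNR4A2 control (3.63% and 2.82% of all genes), and none higher and 2 lower in shNR4A3 control (3.91% and 3.32%). With LPS the counts were 1 and 0 in shNR4A2 (4.31% and 2.65%), and 1 and 2 in shNR4A3 (3.99% and 2.46%). The block gave 8 and 2 in shNR4A2 control (12.1% and 11.5% of all genes), and 1 and 2 in shNR4A3 control (8.09% and 6.71%). With LPS it gave 6 and 5 in shNR4A2 (15.2% and 13.0%), and 3 and 5 in shNR4A3 (12.3% and 9.5%).

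Of 25 tested genes widely cited as AP-1 targets, 16 rose and 1 fell with LPS in shNT (11.6% and 13.3% of all genes), with a median log2 fold change of 1.00. CXCL8, which encodes the neutrophil chemokine IL-8, went from 21.3, 15.6 and 10.7 to 3992, 3336 and 2884 CPM, and IL1B from 21.9, 15.96 and 19.4 to 4521, 3258 and 3498 CPM. PTGS2, the cyclooxygenase-2 gene, rose by log2 6.12. IL6 had no count in the 3 shNT control libraries and 87 with LPS, at least 27.0-fold higher against a floor of 3 counts over the group. HBEGF, an EGF receptor ligand, was the gene that fell (log2 -0.74). In shNR4A2, 17 rose and none fell (9.23% and 10.1% of all genes), and in shNR4A3, 17 rose and 2 fell (13.1% and 15.0%).

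**Figure D5:**
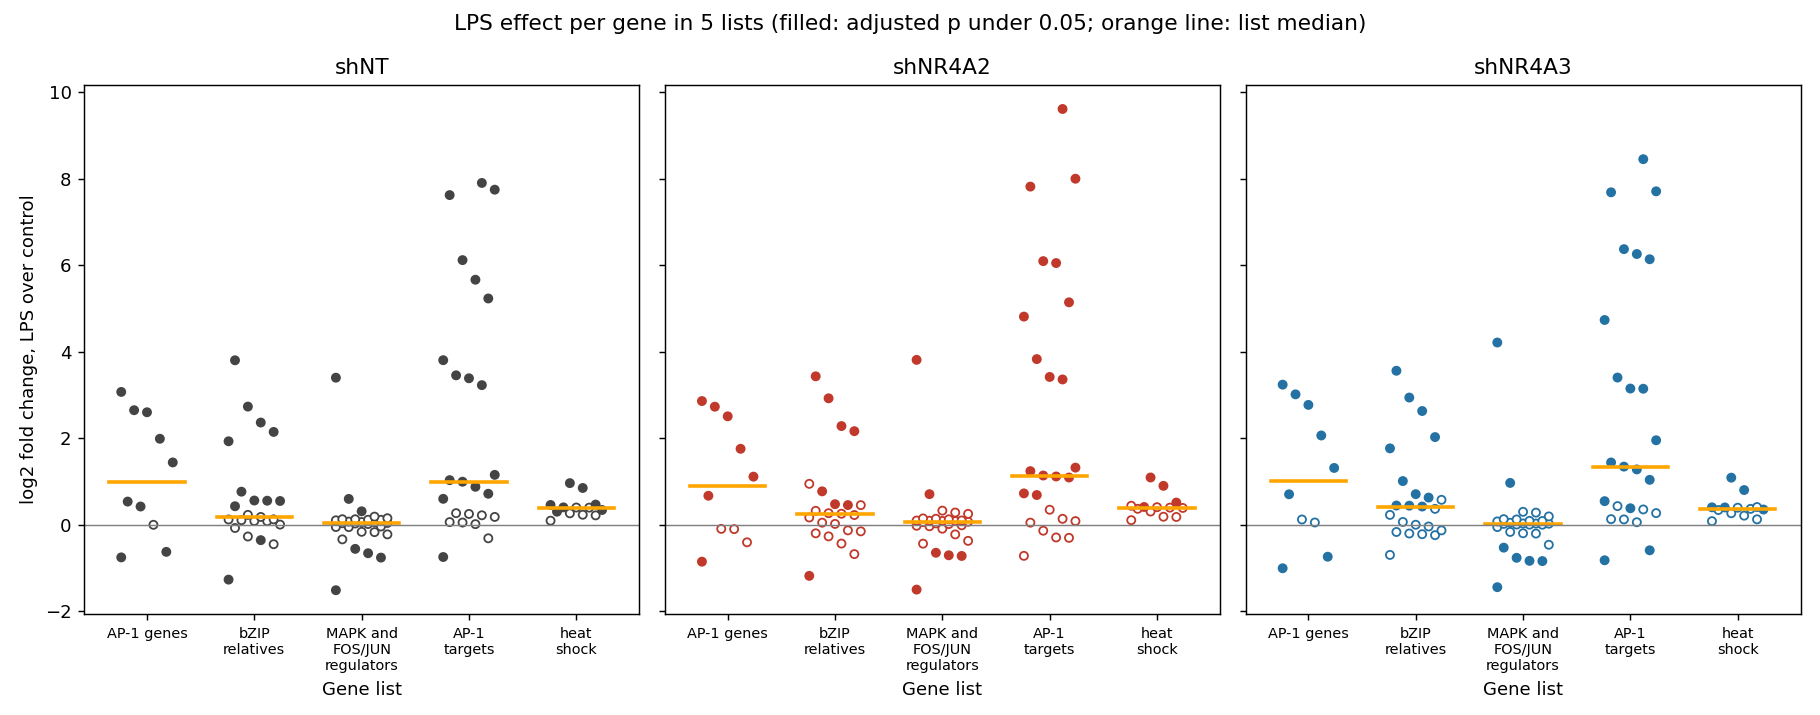
Log2 fold change of LPS over control (edgeR fit) for each gene of 5 lists in shNT, shNR4A2 and shNR4A3; filled points passed an adjusted p under 0.05 and orange lines are list medians. In shNT the medians are 0.99 for the AP-1 genes, 0.18 for the bZIP relatives, 0.04 for the MAPK list, 1.00 for the AP-1 targets and 0.40 for the heat shock genes; the top target points in shNT and shNR4A2 include IL6, whose fitted value depends on a group with no counts.

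Without LPS, CCND1, which encodes cyclin D1, was higher in both knockdown lines (33.7, 26.3 and 30.6 CPM in shNR4A2 and 25.4, 20.7 and 22.4 CPM in shNR4A3 against 12.5, 11.5 and 11.9 CPM in shNT). The log2 fold changes were 1.34 (edgeR adjusted p = 0.000172) and 0.93 (edgeR adjusted p = 0.000406), with no overlap of either line with shNT. Of 22 targets tested without LPS, 3 were higher and 2 lower in shNR4A2 control (3.63% and 2.82% of all genes), and 3 were higher and 4 lower in shNR4A3 control (3.91% and 3.32%), where F3, the tissue factor gene (log2 -1.03), and CCL2 (log2 -1.56) were among the lower ones. With LPS, of 25 tested, 4 were higher and 2 lower in shNR4A2 (4.31% and 2.65% of all genes), and 5 were higher and 1 lower in shNR4A3 (3.99% and 2.46%), with CD44 higher in both (log2 0.80 and 0.86) and ICAM1 higher in shNR4A3 (log2 0.95). With the block, 7 targets were higher and 4 lower in shNR4A2 control (12.1% and 11.5% of all genes), and 4 and 6 in shNR4A3 control (8.09% and 6.71%). With LPS, 11 and 5 were so called in shNR4A2 (15.2% and 13.0%), and 10 and 4 in shNR4A3 (12.3% and 9.5%).

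Heat shock genes were read as a sign of handling, since AP-1 genes are also known to respond to stress. Of 13, 7 rose and none fell with LPS in shNT (11.6% and 13.3% of all genes), among them DNAJA1 (log2 0.96) and HSPA1B (log2 0.85), and their summed level was 7164 ± 323 TPM in control and 7944 ± 506 TPM with LPS (SD, n = 3). In shNR4A2 and shNR4A3, 4 and 5 rose, beside 9.23% and 13.1% of all genes, and with the block 9 and 11 rose, beside 13.8% and 18.6%. None was called between a knockdown line and shNT by edgeR, where at most 1 of 13 had an unadjusted p under 0.05, and DESeq2 called at most 1. The block called 1 higher in each control comparison (12.1% of all genes in shNR4A2 and 8.09% in shNR4A3), and with LPS 2 higher in shNR4A2 (15.2%) and 3 higher in shNR4A3 (12.3%), and none lower. The part of these genes in the AP-1 changes was not tested.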

How the data were processed

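RNA from 18 THP-1 samples was sequenced as polyA-selected paired-end libraries. The authors deposited raw read counts per gene with the merged exon length of each gene. Per the submitters' processing notes these came from Trimmomatic 0.36, STAR 2.5.2b and featureCounts of Subread 1.5.2 on GRCh38, while the strand setting and the annotation release were not given in the sources used here. Total counts per library ran from 16171161 to 23929138 (median 19639071), which limits the precision for genes of few counts. Of 57500 genes, 56898 were given a symbol from GENCODE 29 by gene ID.

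The counts were used as deposited. Each comparison was fitted on its own groups with edgeR 4.0.16 (R 4.3.3): filterByExpr, TMM scaling, and a quasi-likelihood F test over all genes kept, with Benjamini-Hochberg adjustment and a limit of 0.05. SE is the log2 fold change divided by the square root of F. CPM values carry TMM scaling, and TPM was computed from the counts and lengths. The results were recomputed with DESeq2 1.42.0, with RLE size factors, with no filter, all 18 libraries in one fit, the replicate number as a block, and leaving out each library in turn. The fits were tested on simulated data, and the outcome of that check is not given here.

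The study states 3 independent experiments. Same-numbered samples deviated together (r from 0.159 to 0.533) in all pairwise comparisons except LPS in shNT. Replicates of one line share that line, so p-values measure the spread between these experiments.

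The members and the gene lists were chosen with earlier results of these data known. The lists hold relatives, MAPK cascade genes, widely cited targets and heat shock genes. Named genes of a list are, with LPS in shNT, the up to 4 called genes with the largest change in each direction and, in each knockdown comparison, the up to 4 called genes with the smallest p. Some genes that this rule names are not reported here. The JDP2 value with LPS was given for its position after its value was seen. The most similar genes were the 3 with the highest r for each member. No columns were left unmapped.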

Additional observations from a re-analysis of the deposited data

Results flagged for a closer look

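FOS was singled out because its LPS and control libraries lay apart in opposite directions in 2 lines on the TPM scale. The mean difference of LPS minus control was 4.51 TPM in shNT, where every LPS library was above every control library, and -12.2 TPM in shNR4A2, where every LPS library was below every control library. On the TMM-scaled CPM the shNR4A2 groups overlapped (41.3 to 46.7 CPM in control, 32.5 to 47.4 CPM with LPS), and the TPM ratio of all genes stood at a median log2 of -0.28 there. The difference between the lines was tested as an interaction, which gave log2 -0.51 (SE 0.19, edgeR adjusted p = 1.00), and with the replicate block log2 -0.52 (edgeR adjusted p = 0.827).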

How the results depend on the processing

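The 53 results on single members counted here were the LPS effects in each line and the differences between lines called with or without the block. Differences called by neither fit and the interactions were not counted. Of the 53, 51 kept their direction and their side of the threshold under DESeq2 and 53 with its size factors in edgeR. With all 18 libraries in one fit 49 did so, without the filter 47, and with the replicate block 35, where the other 18 passed the threshold. Of 318 fits that left out 1 library, 296 kept both. With the replicate block, the members called numbered 4 for shNR4A2 against shNT in control and 6 with LPS, 3 and 5 for shNR4A3 against shNT, and 4 and 1 for shNR4A2 against shNR4A3. For LPS in shNT the numbers did not pair all samples (r = 0.256, 0.0598 and 0.133), and the block called 9 of 10. Without the filter, 3 members were called for shNR4A2 against shNT in control (1611 of 38284 genes), with JUN added, and 2 with LPS (1843 of 40305 genes), 2 for shNR4A3 against shNT in control (1467 of 37854 genes) and 2 with LPS (1839 of 40278 genes), 2 for shNR4A2 against shNR4A3 in control (838 of 38285 genes), and 8 for LPS in shNR4A2 (3568 of 39187 genes), with FOSL2 added. DESeq2 called 2 in shNR4A3 against shNT (1147 of 37854 genes) and 2 in shNR4A2 against shNR4A3 (646 of 38285 genes), both in control. With all 18 libraries in one fit, 2 and 1 were called between the knockdown lines in control and with LPS (704 and 1032 of 16935 genes), and FOS with LPS in shNT was lost (edgeR adjusted p = 0.062). Leaving out 1 library gave 1 to 2 members for shNR4A2 against shNT in each state, 1 to 2 and 0 to 1 for shNR4A3 against shNT, and 0 to 2 between the knockdown lines in control. FOS with LPS joined the calls for shNR4A2 against shNT without shNR4A2 LPS replicate 2 (edgeR adjusted p = 0.0101).

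Among the results counted above, directions changed only for effects that passed no test. BATF3 with LPS in shNT was -0.0013 on the log2 scale with all 18 libraries in one fit and -0.0939 to 0.0937 with 1 library left out. With 1 library left out, FOS with LPS ran from -0.18 to 0.0791 in shNR4A2 and from -0.10 to 0.24 in shNR4A3, and BATF3 from -0.24 to 0.0200 and from -0.18 to 0.21. Some differences between lines that neither fit called, and that were not counted, also changed sign when 1 library was left out. In shNR4A2 control against shNT, JUND ran from -0.18 to 0.27 and FOSL2 from -0.047 to 0.18. In shNR4A3 control against shNT, JUN ran from -0.16 to 0.19. For the interaction across all genes, none was called by edgeR, while 365 and 824 genes had an unadjusted p under 0.05 and DESeq2 called 2 and 10. The block called 8 and 22, no filter 29 and 138, and edgeR called 8 without shNR4A2 LPS replicate 2 and 44 without shNR4A3 LPS replicate 2; the cause was not tested. By counts in place of TPM, the Jun share in shNT LPS was 85.3%, and the Fos share in shNT control was 38.7%. With 3 libraries a group, a p that misses the threshold does not show that values did not differ.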
